A study of Mus musculus with 17 samples.

Results

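Polycomb repressive complex 2 (PRC2) is the enzyme complex that methylates lysine 27 of histone H3, a mark (K27me3) of repressed promoters. Its messenger RNAs were followed here through 10 genes, out of 23891 gene symbols in the processed files: the catalytic subunits Ezh1 and Ezh2, the core subunits Eed, Suz12, Rbbp4 and Rbbp7, and the accessory subunits Jarid2, Mtf2, Phf1 and Phf19. The genes were selected by name, and each is given by its RefSeq transcript with the highest mean level over the 17 samples. Levels are in FPKM, a fragment count scaled to transcript length and library size. A transcript is called detected here if its FPKM reached 1 in 2 or more samples, which held for all 10 members, and 2 of their 170 values were below 1.

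As background, EZH2 or EZH1 carries the methyltransferase domain, and neither is active without EED and SUZ12. EED binds existing K27me3 and stimulates the enzyme, SUZ12 holds the complex together, and RBBP4 and RBBP7 are histone-binding proteins that also belong to other chromatin complexes. EZH2 is typical of dividing cells and EZH1 of resting and differentiated ones. A given complex contains either a Polycomb-like protein (PHF1, MTF2 or PHF19), a form named PRC2.1, or JARID2 with AEBP2, a form named PRC2.2. Embryonic stem cells are known for K27me3 at developmental promoters that also carry K4me3.

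The study followed the conversion of cultured mouse spermatogonial stem and progenitor cells (SSCs) into multipotent cells of spermatogonial origin (MASCs), whose lines arose in long-term SSC cultures. RNA-seq covered 4 SSC lines (2 Oct4-GFP, 1 C57Bl/6J, 1 129mix), 6 MASC lines (2 Oct4-GFP, 2 129mix, 2 Gt(ROSA26)Sor-lacZ), 2 embryonic stem cell (ESC) lines (1 Oct4-GFP, 1 129mix), 2 induced pluripotent stem (iPS) cell lines (129mix), 2 haematopoietic stem and progenitor cell (HSC) cultures (C57Bl/6J) and 1 sample of mouse embryonic fibroblasts (MEF, 129mix). The MASC and ESC lines were subclones. The iPS lines came from E13.5 MEFs with a doxycycline-inducible tetO-4F2A cassette and tagged histone H3.3B, and the MEF sample came from E13.5 embryos with the same H3.3B-HA tag. The iPS lines were reprogrammed in medium with doxycycline at 2 ug per ml. SSCs were grown on MEF feeders with GDNF, bFGF and EGF, and were freed of feeders by a plating step. The 3 pluripotent or multipotent cell types also had MEF feeders, in serum replacement medium with LIF, and HSCs were lineage-negative bone marrow cells expanded with Kit ligand on E4ORF1-HUVEC endothelial feeders. Medium and cell type therefore cannot be told apart. No source states whether lines of a group were derived from separate animals, so the p-values below measure the spread between these lines.

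Transcripts that mark other cell types were listed in some libraries, and their source is not known. The summed FPKM of 8 fibroblast markers was 5136 in the MEF sample, and the next highest were MASC line 1 at 15.5% of that, SSC line 3 at 14.3%, HSC culture 2 at 6.23%, SSC line 1 at 6.03% and ESC line 1 at 5.99%. The 5 mast cell markers summed to 38120 and 62550 in the HSC cultures. The 6 HSC markers summed to 896 and 1226 there, and the 3 endothelial markers to 23.8 and 42.4. Pecam1 made up most of the endothelial sums, at 19.2 and 42.3. It was also listed at 4.35 to 17.3 in MASC, ESC and iPS lines. Mast cell transcripts were also listed in ESC line 1, MASC line 2 and SSC line 3, at 0.0564%, 0.0923% and 0.0524% of the HSC mean. In every other sample apart from the HSC cultures, the same sum was at most 0.00152% of the HSC mean. The 7 pluripotency markers summed to between 2785 and 6145 in MASC, ESC and iPS lines and to at most 155 in SSC lines, and the 7 SSC markers to between 482 and 697 in SSC lines and at most 161 in those lines. Of the 7 SSC markers, 6 were lower and 1 higher in MASC than in SSC lines (limma adjusted p under 0.05). The shares of all transcripts were 19.5% and 11.4%. The higher marker was Etv5, with a mean of 49.1 in SSC and 112 in MASC lines. Its lines overlapped, with 11.4 to 123 in SSC and 81.05 to 127.8 in MASC lines. The part of the fibroblast and mast cell transcripts in each result was not tested, and counts are given below without the SSC, MASC and ESC lines named here. In bulk RNA, fewer cells of a type and less RNA per cell cannot be told apart.

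The promoters of the 10 genes were taken from RefSeq (GRCm38.p6). Below are the 250 bases before the start of Ezh1 and Ezh2, whose transcripts changed in opposite directions between SSCs and MASCs, and before both starts of Jarid2, whose transcripts differed between lines. CG dinucleotides are in capitals.
Ezh1, chr11:101226464-101226713, - strand: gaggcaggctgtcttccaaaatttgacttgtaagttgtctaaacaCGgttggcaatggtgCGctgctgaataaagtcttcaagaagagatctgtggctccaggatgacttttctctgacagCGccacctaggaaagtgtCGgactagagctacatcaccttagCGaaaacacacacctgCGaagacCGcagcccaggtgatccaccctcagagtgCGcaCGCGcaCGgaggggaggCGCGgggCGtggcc
Ezh2, chr6:47595031-47595280, - strand: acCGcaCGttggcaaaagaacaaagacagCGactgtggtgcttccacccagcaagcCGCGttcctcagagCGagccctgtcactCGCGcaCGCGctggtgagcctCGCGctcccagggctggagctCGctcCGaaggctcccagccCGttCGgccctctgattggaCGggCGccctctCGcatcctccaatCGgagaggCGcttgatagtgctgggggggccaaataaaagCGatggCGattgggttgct
Jarid2, first start, chr13:44730524-44730773, + strand: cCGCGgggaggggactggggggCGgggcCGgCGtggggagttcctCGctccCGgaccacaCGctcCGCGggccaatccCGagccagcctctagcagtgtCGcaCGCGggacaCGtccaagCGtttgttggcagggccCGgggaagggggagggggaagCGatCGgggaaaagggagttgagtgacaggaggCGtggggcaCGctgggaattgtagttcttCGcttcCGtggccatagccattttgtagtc
Jarid2, second start, chr13:44731021-44731270, + strand: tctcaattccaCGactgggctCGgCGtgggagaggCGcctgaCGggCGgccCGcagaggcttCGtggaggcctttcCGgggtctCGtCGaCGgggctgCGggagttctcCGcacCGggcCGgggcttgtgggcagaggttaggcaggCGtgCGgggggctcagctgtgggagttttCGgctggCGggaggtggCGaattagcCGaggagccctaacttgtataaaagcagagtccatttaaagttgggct

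The Ezh1 promoter held 14 CG dinucleotides at 55.2% GC, and the Ezh2 promoter 23 at 63.6% GC. The windows before the first and the second Jarid2 start held 23 and 22. The median of all 32851 promoters in the table was 6 CG dinucleotides and 52.4% GC. The second Jarid2 start lay 497 bases after the first, and in the mm9 annotation its upstream window falls in an intron of the transcripts from the first start. The core of the binding motif of E2F factors, which act on genes of the cell cycle, was searched on both strands as TTCCCGC and TTGGCGC and TTCGCGC and TTGCCGC, in 300-base windows that include 50 bases after the start. It was found in 4 of the 12 windows of the 10 genes and in 9.57% of all promoters. The matching stretches, with the core in capitals, were as follows.
Suz12, chr11:79992878-79992904, + strand: acccctcattTTCCCGCgaattcagtt
Rbbp4, chr4:129335369-129335395, - strand: ttggtcggtgTTGGCGCgaaggcacgc
Phf19, chr2:34914168-34914194, - strand: tcaataattcGCGGGAAaacgcgaaaa
Ezh2, chr6:47595010-47595036, - strand: gttgctgcgtTTGGCGCtcggtccggt

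The Rbbp4 stretch holds a second, overlapping core on the other strand, and the Phf19 core is on the other strand. The 8 other windows, those of Ezh1, Eed, Phf1, Rbbp7 and both starts of Jarid2 and of Mtf2, did not hold these letters. A match is only a description of the sequence.

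The catalytic subunits changed in opposite directions from SSCs to MASCs. Ezh1 (NM_007970, mm9 chr11:101052429-101087764, minus strand) was listed at an FPKM of 38.5, 21.6, 30.3 and 21.8 in SSC lines 1 to 4. The 6 MASC lines lay between 4.99 and 6.93 (median 5.94), and in the ESC lines it was 7.29 and 5.55. Every SSC line was above every line of the other groups. Ezh1 fell by 2.04 on the log2(FPKM + 1) scale from SSC to MASC lines (SE 0.16, limma adjusted p = 1.52e-05), a 4.12-fold difference, and by 1.94 from SSC to ESC lines (SE 0.22, limma adjusted p = 0.000255).

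Ezh2 (NM_007971, mm9 chr6:47480273-47545029, minus strand) was listed at 13.4, 47.8, 19.03 and 21.4 in SSC lines 1 to 4. The MASC lines lay between 41.0 and 58.8 (median 47.4), and the ESC lines had 58.8 and 49.9. SSC line 2 lay within the MASC range and the 3 other SSC lines below it. Ezh2 was 1.06 higher in MASC than in SSC lines (SE 0.28, limma adjusted p = 0.0183) and 1.22 higher in ESC than in SSC lines (SE 0.38, adjusted p = 0.0486). The 95% confidence bounds that Cufflinks gave were 45.5 to 50.2 for SSC line 2 and 12.6 to 14.3 for SSC line 1, which cover the error of estimation within a library and not the spread between lines. SSC line 2 also had the highest summed FPKM of 14 proliferation genes among SSC lines, at 1402. This sum was 1005, 1334 and 869 in SSC lines 1, 3 and 4, where Ezh2 was at 13.4, 19.03 and 21.4. The part of proliferation in these levels was not tested. The fibroblast marker sum of SSC line 2 was the lowest among SSC lines, at 0.427% of MEF. Without the 4 lines with the most fibroblast transcripts, the Ezh2 difference between MASC and SSC lines was 0.62 (adjusted p = 0.214), and without the 3 lines with mast cell transcripts 0.92 (adjusted p = 0.122). With strain as a block it was 0.98 (SE 0.39, adjusted p = 0.123), and the ESC to SSC difference was 1.16 (adjusted p = 0.140), so both calls were lost.

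Within a sample, the ratio of Ezh2 to Ezh1, with the transcripts of a gene summed, was 0.424, 2.66, 0.780 and 1.21 in SSC lines 1 to 4. It ranged from 7.80 to 12.8 in MASC lines and was 9.28 and 10.3 in ESC lines, 7.09 and 8.11 in iPS lines, 2.50 and 2.60 in HSC cultures and 1.82 in MEF. Ezh1 thus made up 27.4% to 70.3% of the pair in SSC lines and 7.24% to 11.4% in MASC lines, with no overlap. Reads that mapped to more than 1 place had been left out, which can lower the values of stretches that Ezh1 and Ezh2, or Rbbp4 and Rbbp7, share.

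**Figure D1:**
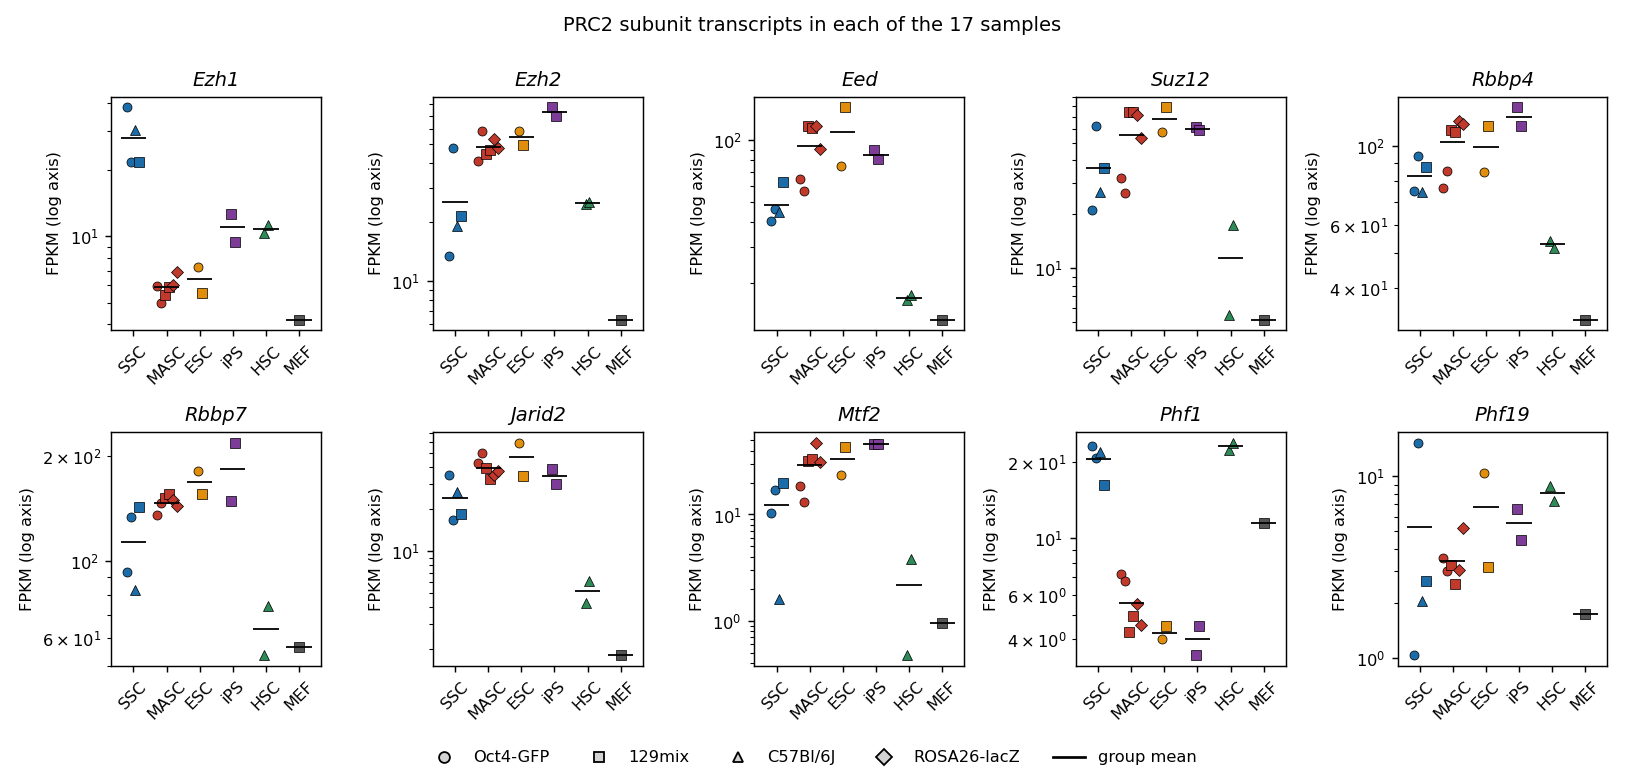
FPKM (log axis) of the 10 PRC2 subunit transcripts in the 17 samples, 1 point per sample, with the mean of each group as a bar and the strain as the symbol. Ezh1 and Phf1 lie higher in all 4 SSC lines than in any MASC, ESC or iPS line. SSC line 2 lies within the MASC range for Ezh2, and SSC lines 2 to 4 lie within it for Suz12.

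Over the 10 genes, 3 were higher and 2 lower in MASC than in SSC lines at a limma adjusted p under 0.05. Of all 32661 transcripts, 11.4% were higher and 19.5% lower. Of the 20119 detected transcripts, 3427 were higher and 5339 lower in the same fit. The median log2 difference was 0.50 over the 10 genes, and -0.12 over the 20119 detected transcripts. Both lower genes had no overlap between lines, against 15.4% of all transcripts, and the 3 higher genes (Ezh2, Eed and Jarid2) overlapped, where 9.91% of all transcripts were higher without overlap. By a rule of a log2 difference of at least 2 and an unadjusted p under 0.05, 1 gene was lower (Ezh1) and 0 higher, against 2.21% and 1.81% of all transcripts. Leaving out single lines moved the count of higher genes between 0 (without SSC line 3) and 3, and gave 1 without MASC line 3 or without MASC line 6. Over all transcripts, the higher calls in these fits lay between 3233 and 3749, against 3739 with every line. The count of higher genes was 1 without the 3 lines with mast cell transcripts (Eed) and 1 without the 4 lines with the most fibroblast transcripts (Jarid2). Of all transcripts, 3301 and 2994 were higher in those fits. The 2 lower genes stayed called in each of these fits. Ezh2 lost its call without SSC line 3, Eed without any 1 of SSC lines 1 to 3 or MASC lines 3 to 6, and Jarid2 without any 1 of SSC lines 2 to 4 or MASC lines 1, 2, 3 and 6. Rbbp7 gained a call without SSC line 2 (0.51, adjusted p = 0.0340) or SSC line 4 (0.54, adjusted p = 0.0171). With strain as a block, Eed and Jarid2 stayed called and Ezh2 did not, and 3267 of all transcripts were higher.

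**Figure D2:**
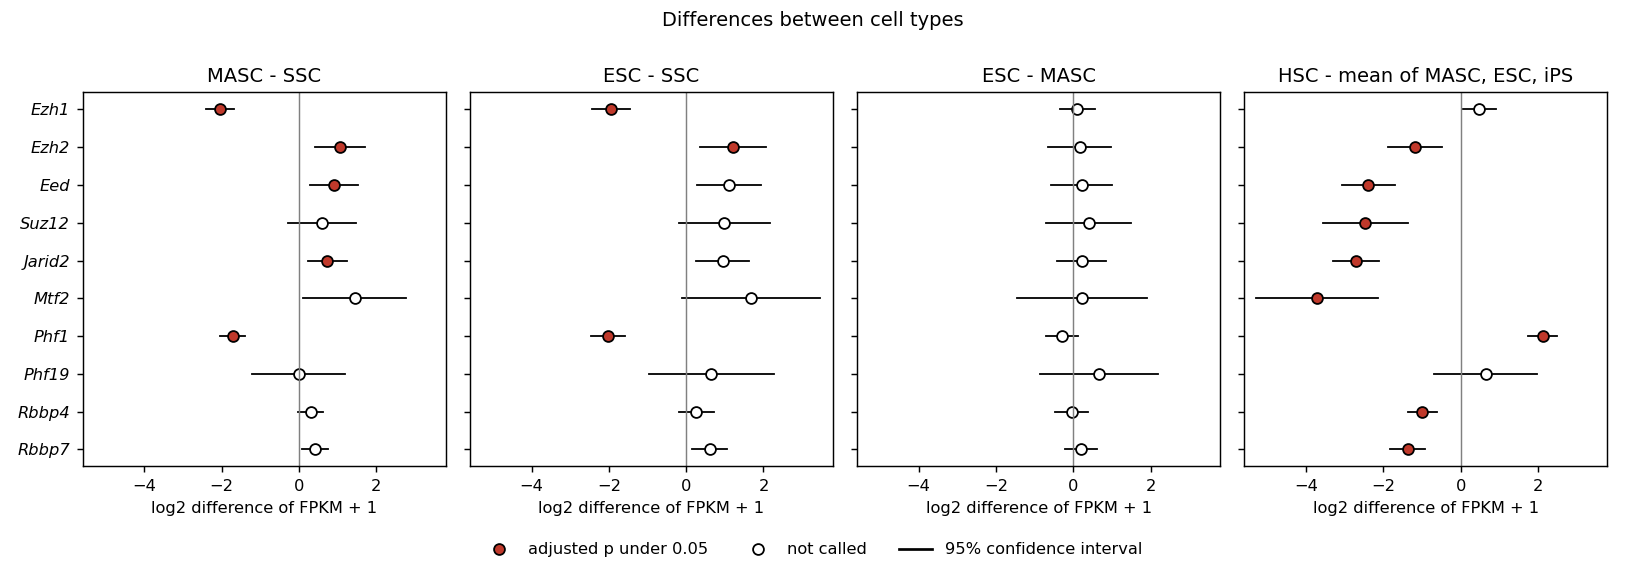
Log2 difference of FPKM + 1 for each PRC2 subunit in 4 comparisons, with 95% confidence intervals, filled where the limma adjusted p was under 0.05. MASC and ESC lines have 2 genes each below SSC lines, no gene passes between ESC and MASC lines, and 7 genes are lower and 1 higher in HSC cultures.

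Among the core subunits, Eed rose and the others did not pass the test. Eed (NM_021876, mm9 chr7:97103164-97129486) was listed at 40.2, 46.1, 44.5 and 62.3 in SSC lines 1 to 4 and ranged from 56.2 to 118 in MASC lines (median 103). The lines overlapped through SSC line 4 and MASC line 2. The difference was 0.90 (SE 0.28, limma adjusted p = 0.0322). Quantile normalization of the samples gave 0.81 with an adjusted p of 0.0643.

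Suz12 (NM_199196, mm9 chr11:79806608-79847625) was at 21.1, 61.9, 26.6 and 36.3 in SSC lines 1 to 4 and between 26.4 and 74.6 in MASC lines, a difference of 0.60 (95% interval -0.28 to 1.47, limma adjusted p = 0.305). Rbbp7 had the highest mean FPKM of the members in every group, and Rbbp4 the next highest except in ESC lines, where Eed came between them. Rbbp7 (NM_009031, mm9 chrX:159198304-159217022) ranged from 82.6 to 143 in SSC and from 136 to 156 in MASC lines, with a difference of 0.41 (95% interval 0.08 to 0.74, limma adjusted p = 0.0594). Rbbp4 (NM_009030, mm9 chr4:128984344-129012614) ranged from 74.4 to 94.1 and from 76.3 to 118, with a difference of 0.30 (95% interval -0.04 to 0.63, limma adjusted p = 0.172).

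The accessory subunits differed from each other. Phf1 (NM_009343, mm9 chr17:27070072-27074835), a Polycomb-like protein with a Tudor domain, was listed at 23.0, 20.7, 21.7 and 16.2 in SSC lines 1 to 4. It ranged from 4.27 to 7.22 in MASC lines (median 5.22) and was 4.01 and 4.50 in ESC lines. The groups did not overlap. Phf1 fell by 1.72 from SSC to MASC lines (SE 0.15, limma adjusted p = 2.21e-05), a 3.29-fold difference, and by 2.02 from SSC to ESC lines (SE 0.20, adjusted p = 0.000107).

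Jarid2 (NM_001205044, mm9 chr13:44826143-45017012), the subunit that defines PRC2.2, was at 35.0, 16.8, 26.2 and 18.3 in SSC lines 1 to 4 and between 32.5 and 49.8 in MASC lines (median 38.5). Only SSC line 1 reached the MASC range. The difference was 0.73 (SE 0.23, limma adjusted p = 0.0345). With the 3 transcripts of the gene summed, SSC lines ranged from 33.2 to 48.0 and MASC lines from 56.5 to 88.2 without overlap, and the difference was 0.82 (SE 0.16, adjusted p = 0.00252).

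Mtf2 (NM_013827, mm9 chr5:108494693-108538238) depended on how its 6 transcripts were counted. The leading transcript was at 10.4, 17.1, 1.60 and 19.6 in SSC lines 1 to 4 and between 13.0 and 47.5 in MASC lines, a difference of 1.45 (95% interval 0.12 to 2.78, limma adjusted p = 0.0975). With transcripts summed, SSC lines had 31.4 to 58.7 and MASC lines 30.5 to 70.4, and the difference was 0.26 (adjusted p = 0.567). Phf19 (NM_028716, mm9 chr2:34749275-34769496), the least abundant member in MASC lines, was at 1.04, 15.3, 2.05 and 2.67 in SSC lines 1 to 4, and SSC line 2 exceeded all MASC lines (2.54 to 5.21). Its difference was -0.01 (95% interval -1.21 to 1.20), and 0.62 without SSC line 2 (adjusted p = 0.200).

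The share of Phf1 in the sum of the 3 Polycomb-like genes was 20.9% to 41.0% in SSC lines, 6.84% to 16.9% in MASC lines, 4.65% and 6.43% in ESC lines and 3.66% and 4.67% in iPS lines. It was 58.9% and 54.7% in HSC cultures and 72.5% in MEF. The sum itself was alike in range in SSC lines (55.1 to 83.9) and MASC lines (40.3 to 79.0). The ratio of Jarid2 to that sum was 0.858, 0.396, 0.726 and 0.553 in SSC lines 1 to 4 and 1.10 to 1.40 in MASC lines, without overlap. It was 1.36 and 0.951 in ESC lines, 0.753 and 0.681 in iPS lines, 0.144 and 0.206 in HSC cultures and 0.144 in MEF. These ratios are descriptions of RNA, and iPS lines lay within the SSC range for the ratio of Jarid2.

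**Figure D3:**
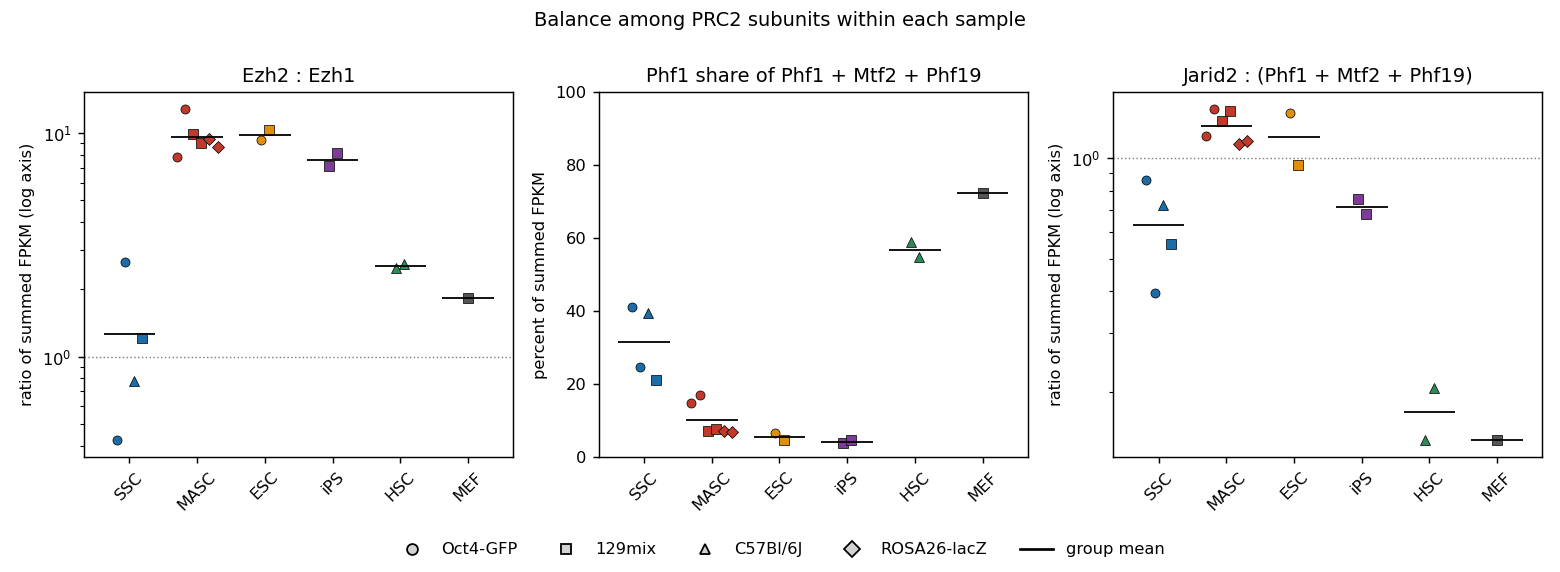
Ratio of Ezh2 to Ezh1 (log axis), share of Phf1 among the 3 Polycomb-like genes, and ratio of Jarid2 to their sum (log axis) in each sample, from the summed FPKM of each gene's transcripts, with bars at group means and symbols for strains. MASC lines lie between 7.80 and 12.8 in the first panel and SSC lines between 0.424 and 2.66.

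The transcripts of Jarid2 differed between lines. NM_001205043, from the second start, was at 12.2 and 6.71 in the Oct4-GFP MASC lines 1 and 2 and between 33.0 and 49.9 in the other 4 MASC lines. It was 21.7 in the Oct4-GFP ESC line 1 and 51.1 in the 129mix ESC line 2. In both cell types the Oct4-GFP lines were the lower ones, and among SSC lines it was 6.91 and 12.4 in Oct4-GFP, 19.9 in 129mix and 5.80 in C57Bl/6J. The share of this transcript among the 3 ranged from 11.9% to 56.6% in MASC lines and from 14.4% to 46.4% in SSC lines. NM_021878, which shares the first start, had 0.000804 in MASC line 2 and up to 6.23 in MASC lines, and 4.00 to 8.01 in SSC lines.

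For Mtf2, the transcript NM_001253877 was at 10.1, 14.0, 14.2 and 17.3 in SSC lines 1 to 4, above the 6.03 to 7.70 of the MASC lines, while the leading transcript was mostly higher in MASC lines. Its share of the gene was 29.2% to 45.1% in SSC lines and 9.52% to 22.4% in MASC lines. The noncoding NR_045608 was at 9.32 to 16.8 in SSC and 6.46 to 12.6 in MASC lines. Transcripts of a gene share most of their reads, so these shares rest on how Cufflinks divided them. Ezh2 and Suz12 had a second transcript each, with 19.4% at most and 14.7% at most of the gene's FPKM in SSC lines and 20.6% and 30.0% at most in MASC lines.

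**Figure D4:**
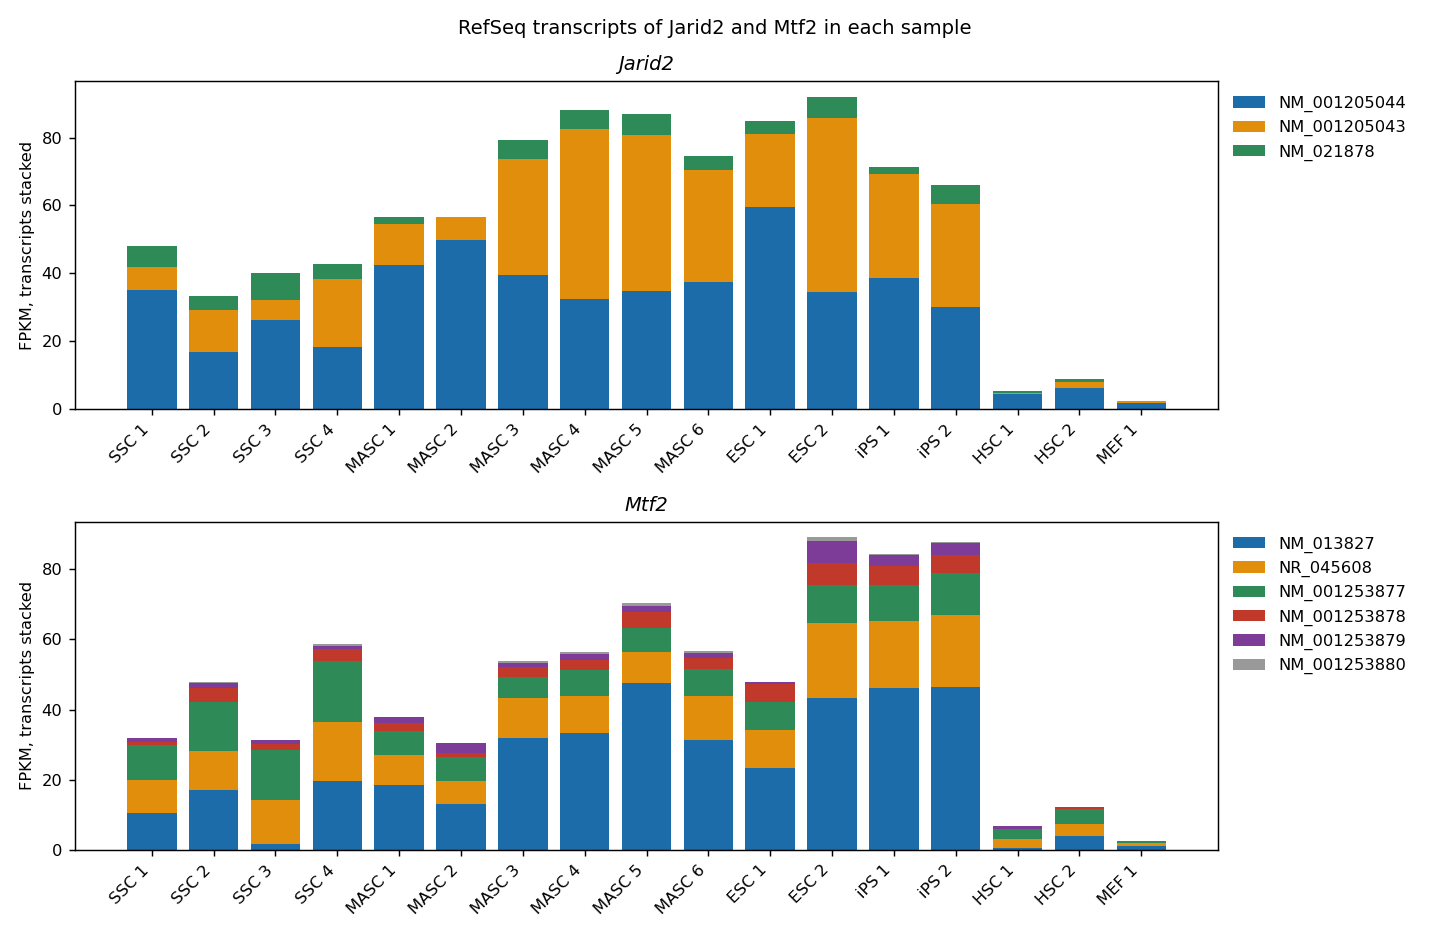
FPKM of the RefSeq transcripts of Jarid2 (upper panel) and Mtf2 (lower panel), stacked for each sample. In MASC lines 1 and 2 the Jarid2 transcript from the second start (NM_001205043) is at 12.2 and 6.71, against at least 33.0 in MASC lines 3 to 6, and in SSC line 3 the leading Mtf2 transcript is at 1.60.

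Other members also differed between MASC lines of different strains. The 2 Oct4-GFP lines were below the 4 other lines for Eed (56.2 and 64.8 against 91.2 to 118), Suz12 (26.4 and 31.9 against 53.3 to 74.6), Mtf2 (13.0 and 18.5 against 31.2 to 47.5) and Rbbp4 (76.3 and 85.3 against 110 to 118). They were above the others for Phf1 (6.79 and 7.22 against 4.27 to 5.50) and for the leading Jarid2 transcript (42.4 and 49.8 against 32.5 to 39.5). With its transcripts summed, Jarid2 went the other way, at 56.6 and 56.5 in the Oct4-GFP lines against 74.6 to 88.2. The remaining 4 members overlapped. By leading transcript, that makes 4 members lower and 2 higher without overlap, against 17.9% and 16.9% of all transcripts. The Oct4-GFP ESC line was also below the 129mix ESC line for Eed (75.0 against 145), Suz12 (57.8 against 79.2), Mtf2 (23.3 against 43.4) and Rbbp4 (84.9 against 115), and above it for the leading Jarid2 transcript (59.4 against 34.5). Phf1 went the other way in the ESC lines (4.01 in Oct4-GFP against 4.50 in 129mix). Summed Jarid2 was 85.0 in the Oct4-GFP ESC line and 92.1 in the 129mix ESC line. Among SSC lines, the Oct4-GFP line 2 had the highest Suz12 (61.9) and Rbbp4 (94.1). The Oct4-GFP SSC line 1 had the lowest Suz12 (21.1), and its Rbbp4 was 74.9, against 74.4 in SSC line 3. MASC line 1 and ESC line 1, both Oct4-GFP, also had fibroblast transcripts at 15.5% and 5.99% of MEF, and MASC line 2 and ESC line 1 mast cell transcripts, so strain and these transcripts cannot be told apart here.

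Whether the difference between MASC and SSC lines itself depended on strain was tested by the interaction of cell type and strain, with 2 SSC and 2 MASC lines of Oct4-GFP and 1 SSC and 2 MASC lines of 129mix. No member passed at an adjusted p under 0.05, against 243 of all 32661 transcripts, and the lowest adjusted p among the members was 0.554 (Rbbp4). Suz12 was 0.31 lower on the log2 scale in MASC than in SSC lines within Oct4-GFP (a difference of -0.31) and 1.02 higher within 129mix. Ezh1 differed by -2.21 within Oct4-GFP and by -1.77 within 129mix, and Phf1 by -1.51 and -1.62.

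The ESC lines were compared with SSC lines in the same fit, so both comparisons share the SSC lines. Ezh2 was higher and Ezh1 and Phf1 were lower, that is 1 and 2 of the 10 members, against 7.67% and 13.8% of all transcripts. Eed (1.12, adjusted p = 0.0594), Jarid2 (0.94, adjusted p = 0.0542) and Rbbp7 (0.60, adjusted p = 0.0563) missed the threshold of limma. A fit restricted to the 20119 detected transcripts passed these 3 as well, which gave 4 higher members, against 2612 of those transcripts. By the rule of a log2 difference of at least 2 and an unadjusted p under 0.05, 1 member was lower and 0 higher, against 2.54% and 1.97%. The Ezh2 call was lost without any 1 of SSC lines 1, 3 and 4 or of either ESC line. The count of higher members was 0 without SSC line 3 and 2 without SSC line 2. Of all transcripts, 2355 and 2503 were higher in those fits, against 2505 with every line.

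Between ESC and MASC lines, 0 of the 10 members passed in limma, and 0 had an unadjusted p under 0.05. The background was 0.0276% higher and 0.00306% lower, so few transcripts passed at all. The differences ranged from -0.30 for Phf1 (95% interval -0.71 to 0.11) to 0.66 for Phf19 (-0.87 to 2.18). The intervals were narrowest for Ezh1 (-0.35 to 0.57), Rbbp4 (-0.46 to 0.39), Phf1 and Rbbp7 (-0.23 to 0.61) and widest for Mtf2 (-1.46 to 1.92), and those of Mtf2, Suz12 and Phf19 include a log2 difference of 1. The fits that summed transcripts, used quantile normalization or estimated a trend also passed 0 members.

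In the HSC cultures most members were lower than in the pluripotent and multipotent lines. Against the mean of the MASC, ESC and iPS groups, 7 members were lower and 1 higher in limma, with 17.4% and 15.9% of all transcripts as background. The median difference was -1.27 over the 10 members and -0.19 over detected transcripts. These 8 members did not overlap between the groups, against 20.1% of all transcripts that were lower and 15.6% that were higher without overlap. By the rule of a log2 difference of at least 2 and an unadjusted p under 0.05, 4 members were lower and 1 higher, against 3.96% and 4.63%. Jarid2 was at 4.30 and 6.14 in HSC cultures, against at least 30.2 in any MASC, ESC or iPS line, and fell by 2.71 (SE 0.27, limma adjusted p = 1.03e-05). Mtf2 was at 0.473 and 3.84 and fell by 3.72 (SE 0.72, adjusted p = 0.00166), but by 0.72 with strain as a block (adjusted p = 0.574). In the blocked fit, the level of C57Bl/6J outside HSC cultures rests on SSC line 3. There the leading Mtf2 transcript was at 1.60, or 5.1% of the gene. With transcripts summed, Mtf2 was at 6.64 and 12.3 in HSC cultures and at least 30.5 in MASC, ESC and iPS lines. The part of strain was not tested.

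Eed was at 16.5 and 17.5 in HSC cultures and fell by 2.38 (SE 0.31, limma adjusted p = 8.55e-05). Suz12 was at 5.50 and 17.4 and fell by 2.46 (SE 0.50, adjusted p = 0.00231). The second Suz12 transcript made up 58.7% of the gene in HSC culture 1 and 10.5% in culture 2, and with both summed the difference was -1.97. Ezh2, at 24.7 and 25.4, fell by 1.17 (SE 0.32, adjusted p = 0.0132). Ezh2 missed the threshold without HSC culture 1 (adjusted p = 0.0798) or culture 2 (adjusted p = 0.0773), and Suz12 without culture 1 (-1.71, adjusted p = 0.0590).

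Phf1 was the member that rose, to 22.3 and 23.8, by 2.12 (SE 0.17, limma adjusted p = 1.72e-06). Ezh1, at 10.4 and 11.2, was 0.48 higher with a limma adjusted p of 0.0748. It passed without the 4 lines with the most fibroblast transcripts (0.54, limma adjusted p = 0.0115). That fit kept HSC culture 2, whose fibroblast marker sum was 6.23% of MEF. Phf19, at 8.87 and 7.34, differed by 0.65 (95% interval -0.68 to 1.97). All HSC cultures were C57Bl/6J, a strain shared only with SSC line 3, and a fit with strain as a block left 3 members lower (Eed, Jarid2 and Rbbp4). Over all 32661 transcripts, that fit called 3009 lower, against 5684 without the block. In that fit the difference of Suz12 was -1.75 (adjusted p = 0.221), that of Ezh2 -0.90 (adjusted p = 0.414) and that of Rbbp7 -0.79 (adjusted p = 0.165). The mast cell transcripts in these cultures are in the same libraries, and their part was not tested.

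Against SSC lines, HSC cultures had 6 lower members (Ezh1, Eed, Suz12, Jarid2, Rbbp4 and Rbbp7) and 0 higher, with 20.7% and 12.7% of all transcripts as background. Phf1 differed by 0.18 (95% interval -0.23 to 0.58) and Ezh2 by 0.13 (-0.63 to 0.89). By the rule of a log2 difference of at least 2 and an unadjusted p under 0.05, 0 members were lower or higher, against 5.21% and 4.32%. Without HSC culture 1 the count of lower members was 3 (Ezh1, Eed and Jarid2), and that of all transcripts went from 6747 to 4502. Rbbp4 was also lost without culture 2, and Suz12 without SSC line 2 or line 4. Mtf2 was lower in this comparison without SSC line 3 (-2.60, adjusted p = 0.00529) and with its transcripts summed (-2.06, adjusted p = 0.000966). Without SSC line 2, Phf19 was also called higher (1.68, adjusted p = 0.00660).

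In iPS lines, Ezh2 was at 77.4 and 69.5, above every other sample, and Mtf2 at 46.1 and 46.5. Of the 10 members 0 passed against the ESC lines in limma, with 0.196% higher and 0.113% lower as background, and 1 had an unadjusted p under 0.05. That member was Ezh1, at 12.6 and 9.45, which was 0.69 higher than in ESC lines (95% interval 0.16 to 1.22, adjusted p = 0.405). The single MEF sample was below the mean of every other cell type for 9 members, with Ezh2 at 6.34, Jarid2 at 1.81 and Mtf2 at 0.957. The mean of the iPS lines was 48.4-fold the MEF value for the leading Mtf2 transcript, 11.6-fold for Ezh2 and Suz12 and 2.63-fold for Ezh1. The Mtf2 fold rests on the MEF value of 0.957. With transcripts summed, Mtf2 had a mean of 86.17 in iPS lines and was at 2.622 in MEF. Jarid2 had the next largest fold after Mtf2, with a mean of 34.34 in iPS lines against 1.81 in MEF. Phf1, at 11.5 in MEF, was the member that was lower in iPS lines (3.46 and 4.52). With 1 MEF sample, these differences have no replicate check.

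The order of the cell types by mean FPKM was SSC, iPS, HSC, ESC, MASC and MEF for Ezh1. Neighbours overlapped for iPS and HSC and for ESC and MASC. For Ezh2 the order was iPS, ESC, MASC, SSC, HSC and MEF, with overlap of ESC with MASC, MASC with SSC, and SSC with HSC. For Phf1 it was HSC, SSC, MEF, MASC, ESC and iPS, with overlap of HSC with SSC and among the last 3. For Eed, Suz12 and Jarid2 the last 3 places were SSC, HSC and MEF, with no overlap among them.

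Over the 17 samples, the levels of Eed and Suz12 had a Pearson r of 0.93, Eed and Rbbp4 0.93, and Suz12 and Mtf2 0.92. Ezh1 and Ezh2 had an r of -0.30, and Phf1 had an r of -0.76 with Eed and with Mtf2. Samples of a cell type cluster, so these values describe the differences between cell types and carry no test. Of 20119 transcripts compared in the same way, the gene symbols most like Ezh1 were Cdca7l (r = 0.968), Dnah11 (0.967) and Dgkd (0.96). Those most like Ezh2 were Nsmce4a (0.952), Uchl3 (0.947) and Fam122b (0.945), and those most like Jarid2 were Dyrk3 (0.968), Hnrnpdl (0.967) and Pced1b (0.966).

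Among 5 other PRC2-associated genes, 1 was higher and 2 lower in MASC than in SSC lines, against 11.4% and 19.5% of all transcripts. Epop (E130012A19Rik in the files), a PRC2.1 partner that binds elongin, ranged from 12.2 to 30.7 in SSC and from 84.1 to 121 in MASC lines, a difference of 2.31 (SE 0.24, limma adjusted p = 7.33e-05). Ezhip (AU022751 in the files), an inhibitor of the EZH2 active site known from germ cells, ranged from 7.50 to 16.3 in SSC and from 0.689 to 2.34 in MASC lines and fell by 2.58 (SE 0.26, adjusted p = 6.26e-05). Lcor, whose locus also encodes a PRC2.1 partner, fell by 1.57 (SE 0.21, adjusted p = 0.000373). Aebp2, the PRC2.2 partner of Jarid2, differed by -0.08 (95% interval -0.53 to 0.37), and Lcorl by -0.38 (-0.90 to 0.15).

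Among the 3 demethylases of the same lysine, Kdm6a was higher in MASC lines by 1.47 (SE 0.20, limma adjusted p = 0.000438) and Kdm6b was lower by a log2 difference of -1.19 (SE 0.19, adjusted p = 0.000919), and Uty did not pass. Of the 2 acetyltransferases of lysine 27, Crebbp fell by 1.56 (SE 0.24, adjusted p = 0.000790) and Ep300 did not pass. Of 20 genes of PRC1, the complex that binds or acts beside K27me3, 6 were higher and 10 lower in MASC lines. The shares of all transcripts were 11.4% and 19.5%. The median of the 20 differences was -0.40. Among the largest of these differences were those of Cbx8 (-3.22), Pcgf5 (-2.77) and Cbx2 (-2.21). Cbx8 ranged from 15.1 to 22.2 in SSC lines and from 0.720 to 1.65 in MASC lines, and Cbx2 from 37.2 to 58.7 and from 7.21 to 11.9. CBX2 and CBX8 are chromodomain readers of the mark and PCGF5 belongs to a PRC1 form without them. Readers also rose, as Cbx7 did by 1.95 (SE 0.10, limma adjusted p = 1.45e-06), from 11.8 to 18.5 FPKM in SSC lines to 56.7 to 65.0 in MASC lines. Cbx7 was named after its values were seen.

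The 14 proliferation genes were followed because Ezh2 accompanies cell division. From SSC to MASC lines, 4 of them rose and 1 fell, against 11.4% and 19.5% of all transcripts, and the median difference was 0.23. Cdk1, the mitotic kinase, was higher by 1.83 (SE 0.27, limma adjusted p = 0.000704), Pcna, the replication clamp, by 1.28 (SE 0.22, adjusted p = 0.00156) and Ccnb1, the partner of Cdk1, by 0.59 (SE 0.09, adjusted p = 0.000871). E2f1 fell by 1.62 (SE 0.42, adjusted p = 0.0144). The summed FPKM of the list was 869 to 1402 in SSC, 1361 to 1707 in MASC, 946 and 1057 in HSC and 269 in MEF samples, and its part in the difference of Ezh2 was not tested.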

How the data were processed

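RNA-seq of 17 samples (4 SSC, 6 MASC, 2 ESC, 2 iPS, 2 HSC and 1 MEF) was analysed, with 1 table per sample of 33262 rows, of which 32661 RefSeq transcripts were kept and 601 further loci left out. The authors deposited FPKM values with Cufflinks confidence bounds (version not given in the sources used here), after TopHat2 2.0.11 alignment to mm9, removal of duplicates and of reads with several positions, and upper-quartile and GC normalization. The deposited coverage, a signal given as reads over each base, was 1.26 to 3.23 at 1 FPKM. The lowest coverage of a member was 0.781 (Mtf2 in an HSC culture). No read counts were used and the number of reads is not analysed here, so no counting intervals are given.

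Groups were taken from the sample labels. FPKM values were used as log2(FPKM + 1), with a pseudocount of 1, which understates changes of low transcripts, and no filter. Limma 3.58.1 in R 4.3.3 (eBayes without a trend, Benjamini-Hochberg adjustment over all 32661 transcripts, threshold 0.05) was fitted to the 12 SSC, MASC and ESC lines, and to all 17 samples for comparisons with HSC and iPS. The same limma steps were first tried on simulated data, for the MASC to SSC comparison only. Sequences were read with Python 3.11.15 from RefSeq promoters, which matched 10 of 10 genes. File starts were counted from 0 and are printed from 1. The alternatives were a pseudocount of 0.1, a filter, quantile normalization, a trend with robust estimation, summed transcripts, other thresholds, blocks for replicate number and strain, a fit over 17 samples and each line left out. Fits without lines holding mast cell or fibroblast transcripts, and all alternatives for HSC against SSC and iPS against ESC lines, were chosen after seeing the data. The members and gene lists were chosen with earlier results of these data known. Besides the 10 members, the genes named are, for each list, at most 4 called genes with the largest absolute MASC to SSC difference, and the 3 symbols most correlated with Ezh1, Ezh2 and Jarid2. Aebp2, Lcorl, Uty and Ep300 are named as the rest of short lists, and Etv5 as the SSC marker that went the other way. A gene that this rule would name is not reported here.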

Additional observations from a re-analysis of the deposited data

Results flagged for a closer look

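Among 50 groups of 4 to 6 lines examined, over the members' transcripts and ratios, 1 held a sample set apart from the rest. Mtf2 made up 75.6% of the summed FPKM of the 3 Polycomb-like genes in SSC line 4 and 56.9% to 57.1% in the 3 other SSC lines, so the gap took up 0.984 of the group's range. Chance sets apart about 1 in 20 groups.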

How the results depend on the processing

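Ezh1 and Phf1 stayed lower in MASC and ESC than in SSC lines under every alternative except a rule of an absolute log2 difference from 2 upwards and an unadjusted p under 0.05, which left 1 of the 2 in each comparison. The count of members higher in MASC than in SSC lines, 3 as reported, was 1 with a log2 difference of at least 1 required, 0 under the rule of 2, 1 without the lines with mast cell transcripts, 1 without those with the most fibroblast transcripts, and between 0 and 3 when single lines were left out. The count higher in ESC than in SSC lines, 1 as reported, was 4 among detected transcripts, 0 with quantile normalization, 3 with summed transcripts, 0 under the rule of 2, 2 with a strain block (Eed and Jarid2, with Ezh2 lost), 3 in a fit over 17 samples (Ezh2, Eed and Jarid2), 0 without the fibroblast-rich lines and between 0 and 2 with single lines left out. In HSC cultures against MASC, ESC and iPS lines, 7 lower members became 4 under the rule of 2 and 3 with a strain block. The 1 higher member became 2 without the fibroblast-rich lines, in a fit that kept HSC culture 2 (6.23% of the MEF fibroblast sum). Against SSC lines, 6 lower members became 0 under the rule of 2, 3 with a strain block and between 3 and 7 with single samples left out, and the higher count lay between 0 and 1. No member passed between ESC and MASC lines or between iPS and ESC lines under any alternative. Mtf2 passed between MASC and SSC lines among detected transcripts (1.45, adjusted p = 0.0499). The calls over all transcripts moved with the setting too. With a strain block, the lower calls went from 5684 to 3009 in HSC cultures against MASC, ESC and iPS lines. Against SSC lines they went from 6747 to 5376. In ESC against SSC lines, the higher calls went from 2505 to 1839 without the fibroblast-rich lines and to 2936 with quantile normalization. For the changes of call given here, the cause was not tested.

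Replicate numbers did not pair SSC with MASC lines: same-numbered deviations had an r between -0.225 and 0.185 over 4 pairs, and 0 of 4 SSC lines correlated best with their own number. With the replicate block, 0 members were higher in MASC than in SSC lines and 0 in ESC than in SSC lines, and 2 stayed lower in each comparison. Over all transcripts, the higher calls went from 3739 to 2271 for MASC and from 2505 to 1272 for ESC lines. The lower calls went from 6360 to 3674 and from 4495 to 2105.

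Differences that changed sign were all uncalled under the settings that turned them. For Phf19, MASC minus SSC was 0.11 with a pseudocount of 0.1 and 0.26 with quantile normalization, and ranged from -0.38 to 0.62 with single lines left out. Its ESC minus SSC difference was -0.26 without the mast cell lines and -0.90 without the fibroblast-rich lines, and ranged from -0.080 to 1.38 with single lines left out. For ESC minus MASC, Rbbp4 was 0.16 with the replicate block, 0.062 with a strain block, 0.12 without the mast cell lines and 0.093 without the fibroblast-rich lines. Without the mast cell lines and without the fibroblast-rich lines, Ezh1 was -0.10 and -0.058, Jarid2 -0.10 and -0.15, and Phf19 -0.10 and -0.059, and Ezh2 was -0.0044 without the fibroblast-rich lines. With single lines left out, that difference ranged from -0.25 to 0.17 for Rbbp4, from -0.064 to 0.28 for Ezh1, from -0.17 to 0.59 for Jarid2, from -0.071 to 1.39 for Phf19, from -0.26 to 0.69 for Eed and from -0.20 to 0.66 for Mtf2. For HSC minus SSC, Ezh2 was -0.0086 with summed transcripts, -0.35 without the fibroblast-rich lines and between -0.11 and 0.48 with single samples left out. Phf1 was -0.0040 with the replicate block, and Mtf2 0.038 with a strain block.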
